A study of Homo sapiens with 8 samples.

Results

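The genes described here are 50 components of mitosis, the mitotic kinases, cyclins, checkpoint and kinetochore proteins, spindle kinesins and cytokinesis factors. They were chosen by name as a functional group, with earlier results of these data known. All 50 were found among the 34792 genes to which transcript reads were summed, and all 50 passed the filter on low counts that left 15993 genes for testing. RNA was sequenced from A673/TR/shFEZF1 cells, a derivative of the human Ewing sarcoma line A673 that constitutively expresses the tetracycline repressor (TR) and carries a lentiviral vector with an H1-driven, doxycycline-inducible hairpin RNA against FEZF1, which encodes a zinc finger transcriptional repressor of the developing nervous system. Both groups share this construct and growth under blasticidin, puromycin and zeocin. The 4 control cultures received no doxycycline and the 4 treated cultures received 1 µg/mL doxycycline for 72 h, and each group held 1 culture of the polyclonal population (bulk) and 1 each of clones 3, 5 and 6 (c3, c5 and c6). Each clone descends from 1 cell and the parental A673/TR line was itself 1 clone, and cultures of cells without the hairpin were not analysed here, so that an effect of doxycycline and an effect of the hairpin cannot be told apart.

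Entry into mitosis is driven by the kinase CDK1 bound to cyclin B, after which Aurora and Polo-like kinases and motor proteins of the kinesin family build the bipolar spindle. Kinetochores, protein assemblies on the centromeres, attach chromosomes to microtubules, and the spindle assembly checkpoint restrains the anaphase-promoting complex until all are attached. Transcripts of these genes are made mainly in the G2 and M phases of the cell cycle, under the control of FOXM1, B-MYB and the DREAM repressor complex, and they serve as markers of dividing cells. In RNA from whole cultures, fewer cells in mitosis and less RNA of these genes per cell cannot be told apart.

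Each library held between 26719886 and 42422421 reads assigned to transcripts, of which 89.9% to 91.1% were matched to a gene symbol. Levels are given as CPM, normalised counts of a gene relative to the scaled library size, and in the order bulk, c3, c5 and c6 throughout. FEZF1, the target of the hairpin, stood at 96.4, 70.5, 107 and 74.4 CPM in the control cultures and at 60.6, 43.0, 60.8 and 36.4 CPM in the doxycycline cultures. It was lower in every treated culture than in any control culture (log2 fold change -0.81, SE 0.0726, edgeR Benjamini-Hochberg adjusted p = 0.00594), although its adjusted p was 0.290 when the origin of the cultures was left out of the model. The Ewing sarcoma markers NR0B1, NKX2-2 and CD99 were present at medians of 81.4, 57.6 and 2637 TPM, which also takes account of transcript length. Others of the same list were low, PAX7 and KCNAB3 having medians of 3.66 and 3.48 TPM. The leukocyte, epithelial, endothelial and liver markers PTPRC, CD3E, EPCAM, CDH1, PECAM1 and ALB did not exceed 3.39 TPM in any culture, a value reached by EPCAM.

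The mitotic genes were lower with doxycycline by a small amount in nearly the whole group, and 10 of the 50 passed the test. These were PRC1, HMMR, KIF23, ESPL1, PLK1, CENPF, KIF4A, DLGAP5, CCNB1 and NDC80, all 10 of them lower and none higher, with log2 fold changes from -0.47 to -0.20. A gene was called when the p-value of edgeR's quasi-likelihood test, in a model that paired the cultures by origin, was under 0.05 after Benjamini-Hochberg adjustment over the 15993 genes. The members were thus called in 20% of cases, beside 7.63% of all genes tested (3.91% lower and 3.73% higher). They also had a higher level, at a median of 87.4 TPM in the controls beside 9.92 TPM for all genes tested. A part of level in these shares was not tested. The median log2 fold change of the 50 members was -0.16, beside 0.0042 for all genes.

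The direction was shared by most genes that did not pass the test. The log2 fold change was below 0 for 49 of 50 members, NEK2 being the exception at 0.10, beside 49.3% of all genes. At an unadjusted p under 0.05, 32 members were lower, beside 12.2% of all genes. A lower level in the treated culture of all 4 pairs was seen for 34 members (68%), beside 15.9% of all genes, while 0 members were higher in all 4 pairs and 16 were mixed. The range of the 4 control cultures was larger than the change for most members. Only for PRC1 was every treated culture below every control culture (2% of the members, beside 2.29% of all genes). The count of members called depended on the pairing and on each pair of cultures. Without the origin in the model 0 members passed, and 5 had an unadjusted p under 0.05 (all genes called, 0.00625%), whereas DESeq2 with the origin in the model called 23 members, beside 12% of all genes. Leaving out the bulk, c3, c5 or c6 pair left 3, 5, 1 or 2 members called (6%, 10%, 2% or 4%), beside 4.44%, 2.89%, 1.09% or 1.4% of all genes in the same fits, and the shares without bulk and without c5 lay nearest to the background. Curated transcripts alone gave 3 members (6%), beside 3.29% of all genes.

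**Figure D1:**
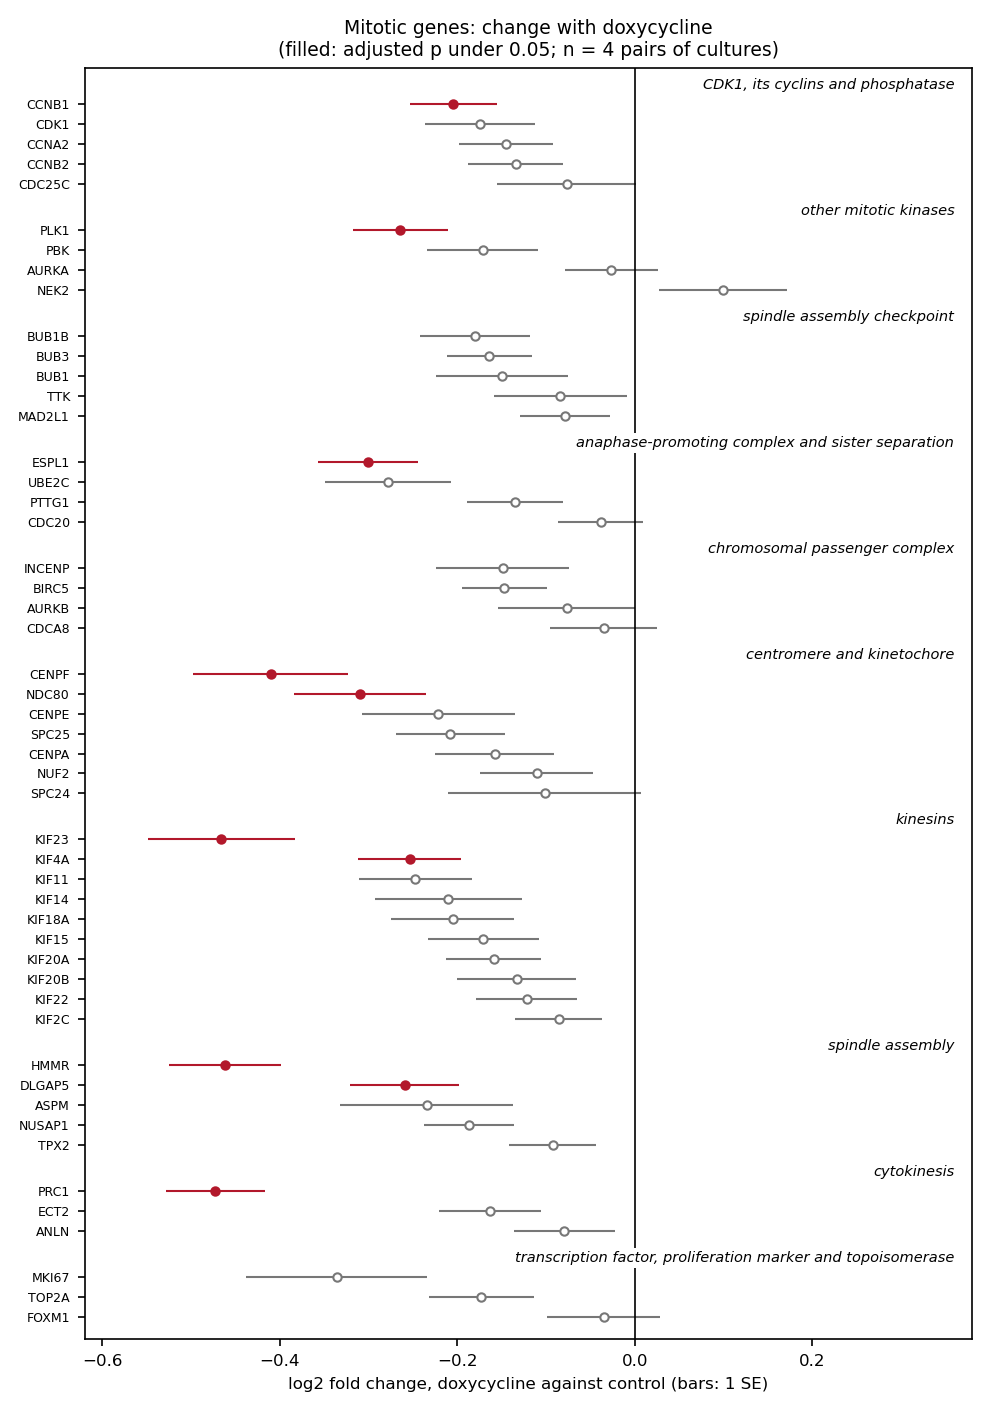
Log2 fold change of the 50 mitotic genes with doxycycline (horizontal axis) grouped by role, where points are the fitted values over 4 pairs of cultures, bars are 1 SE and filled points are the 10 genes with an adjusted p under 0.05. All but NEK2 lie left of 0, and PRC1, KIF23 and HMMR lie farthest left, near -0.47.

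Promoter sequences are shown for genes with large and small changes because mitotic genes are known to share 2 promoter elements, the cell cycle genes homology region (CHR), bound by DREAM and B-MYB complexes, and the CCAAT box, bound by NF-Y. RefSeq promoters of 300 bases, 250 before and 50 after the annotated start on GRCh38.p14, were matched by symbol for 42 of the 50 members; AURKA, PBK, BUB3, TTK, UBE2C, BIRC5, TPX2 and FOXM1 were not among them. Each line below gives 100 bases before to 30 after the start, 5′ to 3′ on the strand of the gene, and capitals mark TTTGAA or TTCGAA (CHR letters) or CCAAT on either strand, where adjoining matches can share letters.
PRC1 (chr15:90994506-90994635, - strand): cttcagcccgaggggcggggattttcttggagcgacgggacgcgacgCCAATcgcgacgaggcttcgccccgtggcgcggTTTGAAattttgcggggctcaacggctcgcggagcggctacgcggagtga
HMMR (chr5:163460532-163460661, + strand): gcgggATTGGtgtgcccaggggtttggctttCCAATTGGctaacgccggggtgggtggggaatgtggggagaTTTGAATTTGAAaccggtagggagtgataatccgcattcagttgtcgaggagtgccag
KIF23 (chr15:69414249-69414378, + strand): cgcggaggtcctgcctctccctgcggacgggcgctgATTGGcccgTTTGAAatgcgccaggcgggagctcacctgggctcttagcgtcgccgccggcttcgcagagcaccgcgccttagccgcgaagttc
PLK1 (chr16:23678789-23678918, + strand): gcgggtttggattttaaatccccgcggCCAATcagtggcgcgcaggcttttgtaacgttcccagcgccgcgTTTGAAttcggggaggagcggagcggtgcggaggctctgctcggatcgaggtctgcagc
CCNB1 (chr5:69167050-69167179, + strand): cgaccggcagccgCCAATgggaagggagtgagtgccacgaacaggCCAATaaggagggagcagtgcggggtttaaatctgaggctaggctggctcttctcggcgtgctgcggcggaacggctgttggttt
NDC80 (chr18:2571457-2571586, + strand): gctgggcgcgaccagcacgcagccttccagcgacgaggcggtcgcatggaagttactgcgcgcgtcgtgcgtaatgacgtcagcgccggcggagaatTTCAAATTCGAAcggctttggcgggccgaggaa
CDC20 (chr1:43358881-43359010, + strand): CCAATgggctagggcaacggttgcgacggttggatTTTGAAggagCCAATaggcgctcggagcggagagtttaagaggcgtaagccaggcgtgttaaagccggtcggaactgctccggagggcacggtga
The first 6 belong to genes that passed the test, and CDC20 to a gene with a log2 fold change of -0.039.

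The letters TTTGAA or TTCGAA were found in 32 of the 42 promoters (76.2%), beside 16.4% of the 35116 promoters in the table. TTTGAA was in 30 of them (71.4%, beside 15.2%) and TTCGAA in 3 (7.14%, beside 1.45%). CCAAT was found in 34 (81.0%, beside 34.6%), and both kinds of letters together in 27 (64.3%, beside 6.38%). Of the 10 genes that passed the test, 9 held the CHR letters, CCNB1 being without them, and 9 held CCAAT, NDC80 being without it. Other spellings of the CHR were not searched, so CCNB1 cannot be said to lack the element. Counted from the start, the CHR letters lay at a median position of -26 and the CCAAT letters at -73.5 bases. Most of the members in the 42 that did not pass the test also held each kind of letters, and CDC20 among them holds both. Whether the letters go with passing the test was not tested.

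Among CDK1, its cyclins and its activating phosphatase, 1 of 5 genes passed the test. CCNB1, which encodes cyclin B1, the CDK1 partner that drives entry into mitosis, measured 330.0, 349, 301 and 416 CPM in the controls and 290.5, 289.6, 256 and 379.7 CPM with doxycycline. It was lower in each pair (log2 fold change -0.20, SE 0.0491, edgeR Benjamini-Hochberg adjusted p = 0.0472), although the 2 groups overlapped, with the c6 culture highest in both. CDK1 itself measured 229, 209, 202 and 277 CPM in the controls and 204, 199, 157 and 259.7 CPM with doxycycline. CDK1 was also lower in each pair, but did not pass the test (log2 fold change -0.17, SE 0.0620, edgeR Benjamini-Hochberg adjusted p = 0.134). CCNA2, CCNB2 and the phosphatase gene CDC25C had log2 fold changes of -0.15, -0.13 and -0.077 and did not pass.

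Of the 4 other mitotic kinases, PLK1, which acts in centrosome maturation, spindle assembly and cytokinesis, passed the test. PLK1 measured 107, 100.1, 177 and 103 CPM in the controls and 94.2, 84.0, 149 and 80.0 CPM with doxycycline (log2 fold change -0.26, SE 0.0536, edgeR Benjamini-Hochberg adjusted p = 0.0300). Both c5 cultures were far above the other 6 cultures, so the groups overlapped, yet the treated culture was lower in each pair. AURKA, the centrosomal Aurora kinase, measured 123, 134, 116 and 139 CPM in the controls and 121, 124, 112 and 146 CPM with doxycycline. Its values differed by less than the spread between cultures (log2 fold change -0.026, SE 0.0526, edgeR Benjamini-Hochberg adjusted p = 0.810). NEK2, a kinase of centrosome separation, had the only positive log2 fold change among the members, 0.10 (SE 0.0721, edgeR Benjamini-Hochberg adjusted p = 0.449), with 2 of 4 pairs lower. PBK, a kinase active in mitosis, stood at -0.17 (SE 0.0629, edgeR Benjamini-Hochberg adjusted p = 0.144).

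None of the 5 spindle assembly checkpoint genes passed the test, and all 5 log2 fold changes were below 0, with a median of -0.15. BUB1B, which encodes the checkpoint protein BubR1, measured 298, 273, 239 and 340.1 CPM in the controls and 259.8, 259, 225 and 264 CPM with doxycycline. It was lower in each pair without passing (log2 fold change -0.18, SE 0.0621, edgeR Benjamini-Hochberg adjusted p = 0.123). BUB3, the partner of BUB1 and BubR1, was nearest to the threshold at -0.16 (SE 0.0479, edgeR Benjamini-Hochberg adjusted p = 0.0805), while MAD2L1, TTK and BUB1 stood at -0.079, -0.084 and -0.15. The transcripts matched to BUB1 held 49.7% of the reads that the deposited gene table implies, so its value rests on part of its reads.

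Of the 4 genes of the anaphase-promoting complex and sister chromatid separation, ESPL1, the gene of separase, the protease that cleaves cohesin, passed the test. ESPL1 measured 193, 169, 165 and 181 CPM in the controls and 170.3, 142, 129.6 and 136 CPM with doxycycline (log2 fold change -0.30, SE 0.0565, edgeR Benjamini-Hochberg adjusted p = 0.0242). The groups overlapped only through the treated bulk culture, which exceeded 2 of the controls. UBE2C, the ubiquitin-conjugating enzyme of the complex, had a change of similar size and missed the threshold, at -0.28 (SE 0.0709, edgeR Benjamini-Hochberg adjusted p = 0.0549). PTTG1, which encodes securin, the inhibitor of separase, stood at -0.13 (SE 0.0541, edgeR Benjamini-Hochberg adjusted p = 0.175). CDC20, the activator of the complex, measured 223, 241, 232 and 230.4 CPM in the controls and 218, 225, 229 and 229.5 CPM with doxycycline. These 8 values lay close together and the change was small, at -0.039 (SE 0.0476, edgeR Benjamini-Hochberg adjusted p = 0.675).

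None of the 4 chromosomal passenger complex genes, which correct faulty attachments and guide cytokinesis, passed the test. AURKB, the kinase of the complex, measured 84.5, 92.2, 97.5 and 94.6 CPM in the controls and 94.9, 76.9, 85.9 and 92.4 CPM with doxycycline. It was higher in the treated bulk culture and lower in the other 3 treated cultures (log2 fold change -0.077, SE 0.0774, edgeR Benjamini-Hochberg adjusted p = 0.5999). BIRC5, which encodes survivin, measured 187, 215, 167 and 237 CPM in the controls and 172, 187, 152 and 216 CPM with doxycycline. BIRC5 was lower in each pair and did not pass (log2 fold change -0.15, SE 0.0478, edgeR Benjamini-Hochberg adjusted p = 0.107), while INCENP and CDCA8, the scaffold and the borealin subunit, stood at -0.15 and -0.035.

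At the centromere and kinetochore, 2 of 7 genes passed the test, with a group median of -0.21. CENPF, a large protein of the outer kinetochore, measured 599, 531, 423 and 578 CPM in the controls and 444, 464, 349 and 347 CPM with doxycycline (log2 fold change -0.41, SE 0.0875, edgeR Benjamini-Hochberg adjusted p = 0.0349). Its treated c6 culture fell the most, and the groups overlapped only because the c5 control was low. NDC80, the microtubule-binding subunit of the Ndc80 complex, measured 81.3, 76.6, 70.7 and 118 CPM in the controls and 64.8, 72.7, 50.2 and 93.0 CPM with doxycycline (log2 fold change -0.31, SE 0.0747, edgeR Benjamini-Hochberg adjusted p = 0.0476). The other subunits of that complex, NUF2, SPC24 and SPC25, stood at -0.11, -0.10 and -0.21 and did not pass. CENPA, the centromeric histone H3 variant, measured 44.1, 38.8, 34.5 and 57.5 CPM in the controls and 38.1, 37.7, 28.4 and 53.6 CPM with doxycycline. CENPA was lower in each pair without passing (log2 fold change -0.16, SE 0.0669, edgeR Benjamini-Hochberg adjusted p = 0.195), and CENPE, the kinetochore motor, stood at -0.22 (SE 0.0861, edgeR Benjamini-Hochberg adjusted p = 0.164).

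Of the 10 kinesins, 2 passed the test and all 10 log2 fold changes were below 0, with a median of -0.19. KIF23, the motor subunit of centralspindlin in the cleaving cell, measured 151, 147, 125 and 181 CPM in the controls and 109, 129, 87.7 and 111 CPM with doxycycline (log2 fold change -0.47, SE 0.0827, edgeR Benjamini-Hochberg adjusted p = 0.0212). Only the treated c3 culture reached into the range of the controls. KIF4A, which works with PRC1 on the central spindle, measured 138, 145, 121 and 151 CPM in the controls and 116, 130.1, 105 and 114 CPM with doxycycline (log2 fold change -0.25, SE 0.0584, edgeR Benjamini-Hochberg adjusted p = 0.0427). KIF11, the Eg5 motor that pushes spindle poles apart, measured 240.4, 220.4, 202 and 311 CPM in the controls and 205, 207, 172 and 230.0 CPM with doxycycline, and narrowly missed the threshold (log2 fold change -0.25, SE 0.0637, edgeR Benjamini-Hochberg adjusted p = 0.0563). The other 7, KIF14, KIF15, KIF18A, KIF20A, KIF20B, KIF22 and KIF2C, ranged from -0.21 (KIF14) to -0.086 (KIF2C).

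Of the 5 spindle assembly genes, 2 passed the test. HMMR, which encodes a microtubule-associated hyaluronan receptor, measured 81.5, 75.6, 65.6 and 121 CPM in the controls and 56.4, 61.5, 45.0 and 86.9 CPM with doxycycline (log2 fold change -0.46, SE 0.0629, edgeR Benjamini-Hochberg adjusted p = 0.00991). The c6 cultures were highest in both groups, so the groups overlapped although each pair fell. DLGAP5, a spindle protein also called HURP, measured 178, 167, 151 and 266 CPM in the controls and 163, 149, 119.5 and 202 CPM with doxycycline (log2 fold change -0.26, SE 0.0619, edgeR Benjamini-Hochberg adjusted p = 0.0465). NUSAP1, ASPM and TPX2, which organise spindle microtubules, stood at -0.19, -0.23 and -0.092 and did not pass.

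PRC1, the microtubule bundler of the central spindle, had the smallest p-value of the 50 members. It measured 400.1, 377, 353 and 453 CPM in the controls and 317, 272, 236 and 320.1 CPM with doxycycline. All 4 treated cultures were below all 4 controls (log2 fold change -0.47, SE 0.0558, edgeR Benjamini-Hochberg adjusted p = 0.00729), and the exact 2-sided permutation test over the 8 cultures gave p = 0.0286, the smallest that 4 against 4 allows. The other 2 cytokinesis genes, ECT2, the activator of RhoA, and ANLN, the anillin scaffold, stood at -0.16 (SE 0.0580, edgeR Benjamini-Hochberg adjusted p = 0.133) and -0.080 (SE 0.0570, edgeR Benjamini-Hochberg adjusted p = 0.442).

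The transcription factor, the proliferation marker and the topoisomerase in the list did not pass the test. FOXM1, the activator of G2/M genes, measured 249, 312, 271 and 289 CPM in the controls and 280.5, 284, 259.6 and 267 CPM with doxycycline. Its values differed by less than the spread between cultures (log2 fold change -0.035, SE 0.0633, edgeR Benjamini-Hochberg adjusted p = 0.788). MKI67, the gene of the Ki-67 antigen, measured 967, 841, 751 and 769 CPM in the controls and 816, 764, 657 and 451 CPM with doxycycline. The treated c6 culture was the lowest of the 8 by a wide margin, and the change did not pass (log2 fold change -0.34, SE 0.102, edgeR Benjamini-Hochberg adjusted p = 0.0902). Without the c6 pair the log2 fold change of MKI67 was -0.19. TOP2A, the topoisomerase that untangles sister chromatids, measured 385, 345, 288 and 474 CPM in the controls and 351, 319, 269.8 and 371 CPM with doxycycline, and stood at -0.17 (SE 0.0592, edgeR Benjamini-Hochberg adjusted p = 0.122).

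Compared per length, as TPM, the most abundant members in the control cultures were PTTG1 at 369 ± 61.0, UBE2C at 320.3 ± 30.9 and CCNB1 at 303 ± 38.3 (SD, n = 4), and the least abundant were CENPE at 17.2 ± 1.45 and KIF15 at 14.002 ± 3.51. The first 3 overlapped in their spread, as did the last 2. Of the 10 genes that passed the test, 6 had their reads divided among transcripts. CENPF had 59.7% of its reads on a predicted transcript, with a mean share of 62.1% ± 2.23 in the controls and 56.8% ± 4.49 with doxycycline. With curated transcripts only, the log2 fold change of CENPF was -0.23 (edgeR Benjamini-Hochberg adjusted p = 0.377) and the gene was no longer called. KIF23 had mean shares of 47.6% ± 12.5 and 33.4% ± 12.03 on NM_004856.7, and of 31.6% ± 11.2 and 46.9% ± 11.2 on NM_138555.4, with overlapping spreads. The leading transcript held 30.2% of the reads of PRC1, 56.9% of those of ESPL1, 65.3% of those of DLGAP5 and 70.7% of those of HMMR. The reads of PLK1, KIF4A and NDC80 were all on 1 transcript, and those of CCNB1 were 97.1% on 1.

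Most members were lower with doxycycline in each of the 4 origins. The median log2 ratio of the 50 members, doxycycline over control, was -0.16 in bulk, -0.12 in c3, -0.19 in c5 and -0.17 in c6, while the median of all genes was between -0.0022 and 0.0086. The treated culture was lower for 46, 43, 47 and 46 of the 50 members. Summed over the members, the level changed by -11.4% in bulk, -8.81% in c3, -12.8% in c5 and -18.3% in c6. The sums averaged 9071 ± 1025 CPM in the controls and 7887 ± 688 CPM with doxycycline (SD, n = 4), so that the groups overlapped on this measure. The gene with the lowest ratio was HMMR in bulk (-0.53), PRC1 in c3 (-0.47) and c5 (-0.58), and MKI67 in c6 (-0.77).

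For most members the 4 control cultures spanned a wider range than the size of the change with doxycycline. In the controls, c6 had the highest level of 39 of the 50 members and c5 the lowest of 40. The range of the 4 controls had a median of 0.49 on the log2 scale, from 0.11 for CDC20 to 1.34 for NUF2, and was larger than the size of the change with doxycycline for 48 of the 50 members. The exceptions were PRC1 and ESPL1. A range over 4 cultures and a fitted change over 4 pairs are unlike measures, and the pairing takes up differences between origins. NUF2, a subunit of the Ndc80 complex, stood at 78.0, 41.3, 63.4 and 105 CPM in the controls, with c3 lowest and c6 highest. PLK1 showed another order, with its highest control in c5, the origin that was lowest for most members.

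The changes moved with the length of the transcripts, in directions that differed between origins. Over the 50 members, Spearman's rho between the effective length of a gene and its log2 ratio was -0.436 in bulk, 0.300 in c3, 0.204 in c5 and -0.674 in c6. Over the 5666 genes at or above the lowest mean level of a member it was -0.216, 0.230, 0.0553 and -0.525. These are correlations across genes of the same libraries, and genes are not independent replicates. The 10 longest members, CENPF, MKI67 and ASPM among them, had median log2 ratios of -0.25, -0.067, -0.18 and -0.43 in the 4 origins, and the other 40 had -0.13, -0.13, -0.19 and -0.14. A part of length in the result was not tested.

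The other mitotic genes, a list of 108 from the same pathway, had a median change nearer to 0. Of these 9 passed the test (8.33%), 8 lower and 1 higher, a share close to the 7.63% of all genes tested. A log2 fold change below 0 was seen for 75 (69.4%), beside 49.3% of all genes, and the median was -0.054. Those lower included the condensin subunit gene NCAPD2 at -0.44 (SE 0.0665, edgeR Benjamini-Hochberg adjusted p = 0.0136) and the centromere gene CENPM at -0.45 (SE 0.0757, edgeR Benjamini-Hochberg adjusted p = 0.0189). FAM83D, DEPDC1, ARHGAP11A, GTSE1 and FBXO5, which act on the spindle or regulate mitosis, stood between -0.36 (ARHGAP11A) and -0.26 (GTSE1, whose matched transcripts held 62.4% of the reads that the deposited gene table implies). Of the 33 genes with a log2 fold change above 0, only CDC23, a subunit of the anaphase-promoting complex, passed the test. CDC23 rose from 99.97, 100.4, 93.5 and 103 CPM to 115, 124, 122 and 127 CPM, with every treated culture above every control (log2 fold change 0.30, SE 0.0537, edgeR Benjamini-Hochberg adjusted p = 0.0212). By subgroup, 4 of 21 spindle and mitotic regulators passed the test, 1 of 19 constitutive centromere genes, 0 of 19 outer kinetochore and checkpoint genes and 2 of 17 condensin and cohesin genes. Of the anaphase-promoting complex genes 2 of 15 passed, 1 lower and 1 higher. No gene passed among 7 CDK1 regulators, 4 cytokinesis genes and 6 regulators of mitotic gene transcription. In the last subgroup 4 of 6 log2 fold changes were above 0, and the median was 0.030. Among the 21 spindle and mitotic regulators, 19 were below 0 (90.5%, beside 98% of the 50 members), and the median was -0.095. Their share called, 19.0%, was near the 20% of the 50 members.

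The DNA replication genes, expressed earlier in the cycle, in G1/S and S phase, had mostly lower levels too. Of 39 genes 11 passed the test, all 11 lower (28.2%), beside 7.63% of all genes called and 3.91% called lower. A log2 fold change below 0 was seen for 33 (84.6%), beside 49.3% of all genes, and the median was -0.19. Every treated culture was below every control culture for 6 of the 39 (15.4%), beside 2% of the members and 2.29% of all genes. Of the 6 MCM2 to MCM7 genes of the replicative helicase, MCM6, MCM3, MCM5 and MCM4 passed the test, at -0.39, -0.29, -0.31 and -0.22, while MCM2 and MCM7 did not, at -0.15 (SE 0.0482, edgeR Benjamini-Hochberg adjusted p = 0.103) and -0.058 (SE 0.0468, edgeR Benjamini-Hochberg adjusted p = 0.501). PCNA, the sliding clamp, stood at -0.33 (SE 0.0639, edgeR Benjamini-Hochberg adjusted p = 0.0263). MCM6 measured 292, 263, 274 and 362 CPM in the controls and 249.8, 191, 198 and 275 CPM with doxycycline and was lower in each pair (log2 fold change -0.39, SE 0.0575, edgeR Benjamini-Hochberg adjusted p = 0.0129). E2F1, the G1/S transcription factor, and the replication genes POLA1 and LIG1 stood at -0.31, -0.30 and -0.31. Whether the lists differ in their change was not tested.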

How the data were processed

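RNA of 8 cultures, 4 per group, was sequenced on an Illumina platform from stranded mRNA libraries. The authors quantified the reads with Salmon against RefSeq transcripts of GRCh38, and the deposited files hold estimated counts and TPM per transcript, with lengths and effective lengths, 1 file per library; whether strand was used is not given in the sources used here. They also deposited a DESeq2 (2.11.40.6) table whose mean column is the average signal of normalised counts over the 8 libraries, used here only to see how many reads were matched. Its other columns hold the authors' own comparison and were not used.

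Transcripts (115325 of 158867, 72.6%) were matched to symbols through RefSeq and their estimated counts summed over 34792 genes. The sums were rounded, filtered with filterByExpr, scaled by TMM and tested with edgeR 4.0.16 (glmQLFit, glmQLFTest) in R 4.3.3, with the origin of the cultures as a replicate block. P-values were adjusted by the Benjamini-Hochberg method over 15993 genes, at 0.05. TPM was summed per gene for levels only. Log2 ratios of single pairs used a pseudocount of 0.5 CPM, and summaries were made in Python 3.11.15 with pandas 2.3.3, numpy 2.4.6 and scipy 1.17.1. Cultures of the same origin come from the same cells, as the sample titles give, and their deviations from the group means correlated at 0.406 to 0.590, beside -0.395 to 0.179 between origins. By construction the deviations of a gene sum to 0 in each group, so positive correlations within origins pull down those between origins. Each origin gave 1 culture per group, so p-values of the main fit set the change against a spread of differences within origins. The quasi-likelihood fit of edgeR moderates that spread across genes, so it is not the spread of a gene's own 4 pairs alone. Differences between origins were taken up by the block.

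The alternatives were the fit without the block, DESeq2 1.42.0 with and without it, DESeq2 size factors, filters of 1 count in any library and 10 counts in every library, an effective length offset, curated transcripts only and leaving out each pair. The fits were tested on simulated data, in which the share of false calls among the calls of the edgeR fit with the block was above the nominal rate, so calls near the threshold are less secure than their adjusted p states. Values in every library were printed for the members that passed the test and for AURKA, AURKB, PLK1, CDK1, CCNB1, CDC20, BUB1B, KIF11, CENPA, TOP2A, BIRC5, FOXM1 and MKI67, and up to 8 called genes were named in each other list, of which 1 is not reported here (MCM4, MCM2 and MCM7 were added after their values were seen). The members, lists and tests were chosen with earlier results of these data known.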

Additional observations from a re-analysis of the deposited data

Results flagged for a closer look

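In 6 of the 102 groups of 4 cultures that were examined, 1 culture stood apart from the other 3, its gap to the nearest being a larger share of the range of the group than Dixon's 95% limit for 4 values. Chance flags about 1 in 20 groups, or 5.1 of the 102. In the controls these were CCNB2 in c6 (192 CPM, the others 132 to 142), PLK1 in c5 (177 CPM, the others 100.1 to 107), CENPE in c3 (76.4 CPM, the others 87.7 to 89.8) and KIF22 in c6 (191 CPM, the others 162 to 163). With doxycycline they were NEK2 in c6 (59.0 CPM, the others 42.1 to 44.7) and BUB1B in c5 (225 CPM, the others 259 to 264). PLK1, a Polo-like kinase, passed the test with doxycycline, and the remaining 5 genes did not.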

How the results depend on the processing

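The median log2 fold change of the 50 members stayed between -0.19 and -0.15 in all 12 alternatives, and 48 or 49 members were below 0 in each. The counts of calls moved far more. Without the replicate block edgeR called 1 gene in all, 0 members and 0 other mitotic genes (5 members at an unadjusted p under 0.05). DESeq2 with the replicate block called 1920 genes, 23 members (all lower) and 22 other mitotic genes, and DESeq2 without it called 231, 1 and 2. Curated transcripts only gave 493 genes and 3 members. The filter of 10 counts in every library gave 14 other mitotic genes. Leaving out 1 pair gave 175 (c5) to 699 (bulk) genes, 1 (c5) to 5 (c3) members, all lower, and 0 (c5 and c6) to 4 (c3) other mitotic genes. These fits have fewer samples, and for the other settings the cause was not tested. PRC1 stayed called in 11 of the 12 alternatives, all but edgeR without the block. Of 252 results for 21 named members, 185 kept their direction and side of the threshold, 56 lost and 10 gained significance, and the log2 fold change of AURKA, from -0.057 (without c6) to 0.0013 (without c3), reversed in the last. Only the 10 members called in the main fit could lose significance, so all 56 losses fell on them. The 185 include members that were called in neither fit. The paired cultures share their origin, and the pairing is part of every main value. The depth allowed all 50 members to be tested, at a median SE of 0.0621 on the log2 scale, so that most of their changes were close to what 4 pairs can resolve.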

Other observations

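CDC25A, the phosphatase that activates CDK2 and CDK1, had the lowest log2 fold change of the other mitotic genes and was looked at after its values were seen. It measured 13.1, 16.2, 22.1 and 9.41 CPM in the bulk, c3, c5 and c6 controls and 8.01, 14.6, 6.80 and 0 CPM with doxycycline. The treated culture was lower in each pair, and the change did not pass the test (log2 fold change -1.45, SE 0.658, edgeR Benjamini-Hochberg adjusted p = 0.225). The transcripts matched to CDC25A held 17.8% of the reads that the deposited gene table implies, so the value rests on a minor part of its reads. Among the Ewing sarcoma markers, 2 genes passed the test as higher and 1 as lower with doxycycline, while 7.63% of all genes were called. The others of that list, PRKCB, STEAP1, BCL11B, PAX7, KCNAB3, CCND1, JAK1 and CD99, did not pass. NR0B1, a nuclear receptor and known EWSR1-FLI1 target, had a log2 fold change of 0.67 (edgeR Benjamini-Hochberg adjusted p = 0.00745) and NKX2-2 one of 0.30 (adjusted p = 0.0414), while LIPI, a lipase, stood at -0.30 (adjusted p = 0.0203).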
